A study of Mus musculus with 10 samples.

Results

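The 4 genes of the early growth response family, Egr1, Egr2, Egr3 and Egr4, were followed through the cell classes of the mouse medial prefrontal cortex and between animals of high and low social rank. They were taken by symbol, as 4 of the 30406 genes held by both gene lists of the deposited matrices, and all 4 had counts in each of the 10 libraries. The cells came from male C57BL/6N mice, an inbred strain, over 2 months old, whose rank had been settled with the tube test, a contest of pushing in a narrow tube. Rank 1 (dominant) and rank 4 (subordinate) mice gave 5 libraries each, every library being a pool of tissue from 2 or 3 mice. The labels give no allele or treatment that set the ranks apart. The cortex was collected on the day after the final contest, in punches from slices, and dissociated with papain in medium with AP5, a blocker of NMDA receptors. Every library went through this warm digestion, of the same length and temperature in both ranks. Stress can switch Egr genes on within minutes, so Egr levels, class orders and shares of cells measured after it need not be those in the animal. The part of the digestion in them was not tested. The library was the replicate, and as mice were pooled, the spread between mice of 1 library could not be seen and p-values measure the spread between these libraries.

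Egr proteins are zinc finger transcription factors that bind GC-rich sites, and their genes are immediate early genes: synaptic activity, growth factors and stress switch them on within minutes without new protein synthesis. Serum response factor with its Elk partners, acting at CArG boxes, and Creb, acting at cyclic AMP response elements, carry the signal to their promoters. Egr1 (also known as Zif268) is used as a mark of active neurons and is needed for lasting synaptic change, Egr2 (Krox20) is best known from hindbrain patterning and myelination by Schwann cells, Egr3 from muscle spindles and neuronal plasticity, and Egr4 from male germ cells and neurons. The corepressors Nab1 and Nab2 bind Egr1, Egr2 and Egr3 and damp their activity, and Nab genes are themselves Egr targets.

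On the GRCm38 build, in the GENCODE M21 annotation, Egr2 (ENSMUSG00000037868) lies on the plus strand of chromosome 10 at 67535475 to 67542188, Egr3 (ENSMUSG00000033730) on the plus strand of chromosome 14 at 70077203 to 70082614, and Egr4 (ENSMUSG00000071341) on the minus strand of chromosome 6 at 85511121 to 85513589. No other annotated gene overlaps any of the 4 members on either strand, and all are protein coding. RefSeq promoter windows (GRCm38.p6) were matched for 2 of the 4 members, Egr2 and Egr4. The 250 bases before their start sites are printed to show where they match parts of the elements named above. Capitals mark matches to the core of the cyclic AMP response element, TGACG, on either strand, and in Egr2 also the single match to a CArG box.
Egr2, chr10:67537619-67537868, plus strand: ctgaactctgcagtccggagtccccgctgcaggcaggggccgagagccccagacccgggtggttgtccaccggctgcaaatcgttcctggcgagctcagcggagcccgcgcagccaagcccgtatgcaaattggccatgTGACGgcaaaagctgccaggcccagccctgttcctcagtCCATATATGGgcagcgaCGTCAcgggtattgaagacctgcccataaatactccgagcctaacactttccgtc
Egr4, chr6:85513590-85513839, minus strand: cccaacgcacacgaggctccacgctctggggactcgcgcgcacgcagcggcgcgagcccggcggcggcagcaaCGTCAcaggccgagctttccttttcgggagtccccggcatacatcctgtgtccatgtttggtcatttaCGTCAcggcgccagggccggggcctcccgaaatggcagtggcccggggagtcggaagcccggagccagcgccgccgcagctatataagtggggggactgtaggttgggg

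The Egr2 window belongs to 1 of 5 start sites listed for the gene, and it lies inside the span of 2 longer Egr2 transcripts but in no exon of them. The Egr4 window lies in no annotated transcript of Egr4. The core element was found in Egr2 on the plus strand at 111 to 107 bases before the start and on the other strand at 55 to 51, and the CArG box at 72 to 63. In Egr4 it was found on the other strand at 177 to 173 and at 109 to 105. Of 32851 RefSeq windows of the same 250 bases, 17.8% held the core and 3.9% held it at 2 or more places, while 1.47% held a CArG box. The full element TGACGTCA, present in 1.55% of windows, the AP-1 site TGANTCA, present in 6.75%, and the Egr site GCGTGGGCG, present in 0.536%, were found in neither window. Among the corepressors, the Nab1 window held the Egr site at 2 places, as 0.0213% of windows did, and the Nab2 window at none. Each Nab window overlapped 1 exon of its own gene. Unlike the windows of the members, they were not matched to an annotated start.

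The libraries held 4442750 to 29278466 unique molecular identifiers (UMIs, 1 for each captured RNA molecule) over 64937 barcodes, of which 45864 were kept as single cells. Replicates 1 to 3 of both ranks carried a different software version in their headers from replicates 4 and 5, and the pair of libraries with most barcodes in common, replicates 1 of the 2 ranks, shared 104, or 1.70% of the smaller, 37 of them kept. Cells were clustered with the Egr genes and other early response genes set aside, and classes were named from marker genes. The largest were 16389 excitatory neurons, 9020 astrocytes, 4253 endothelial cells, 3617 microglia, 3198 oligodendrocyte precursors, 2303 oligodendrocytes, 2262 inhibitory neurons, 1639 pericytes and 535 smooth muscle cells. In excitatory neurons the 8 excitatory markers summed to 2960 CPM (a gene's UMIs scaled by the UMI total of the class) and the inhibitory markers to 114 CPM. Rank 4 replicate 5 alone gave 5740 of the excitatory neurons.

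Egr1 (ENSMUSG00000038418, plus strand of chromosome 18 at 34859823 to 34864984) had UMIs in all 9 classes. Its mean level was 297 ± 90 CPM in endothelial cells, 241 ± 155 in microglia, 230 ± 120 in pericytes and 218 ± 104 in excitatory neurons (mean ± SD, n = 10 libraries). Smooth muscle cells had 204 ± 131 CPM over 8 libraries. Oligodendrocyte precursors followed at 165 ± 100 CPM and inhibitory neurons at 152 ± 56, with astrocytes at 76.4 ± 75.0 and oligodendrocytes at 74.7 ± 61.5. Of the 8 steps down this order only that from inhibitory neurons to astrocytes passed, being downward in 10 of 10 libraries (difference of 1.77 in log2(CPM + 1), two-sided exact sign-flip permutation test, adjusted p = 0.0156, the smallest p being 0.00195 before adjustment over 32 steps). No neighbours among the first 7 classes differed beyond the spread between libraries.

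Egr2 was at 27.0 ± 12.96 CPM in microglia and 24.9 ± 8.8 in excitatory neurons, and these did not differ beyond their spread (microglia higher in 7 of 10 libraries, adjusted p = 0.977 in the same exact permutation test). Endothelial cells came next with 14.2 ± 6.7 CPM, below excitatory neurons in 10 of 10 libraries (log2 difference 0.85, exact permutation adjusted p = 0.0156). In the other 6 classes the mean was 4.88 to 10.0 CPM, resting on 8 to 91 UMIs in all, and no step among them passed.

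Egr3, which acts with Egr1 in activity-driven transcription, peaked in excitatory neurons at 110 ± 28 CPM. Endothelial cells had 71.6 ± 20.04 CPM, lower in 10 of 10 libraries (log2 difference 0.63, exact permutation adjusted p = 0.0156), a call lost with a stricter cell filter (0.46). Microglia had 50.2 ± 40.8 CPM, and the step to them did not pass (9 of 10 libraries, exact permutation adjusted p = 0.125). The remaining classes had 19.6 to 30.8 CPM, in no order beyond their spread.

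Egr4 peaked in excitatory neurons, with 151 ± 59 CPM there against 34.2 ± 11.2 in inhibitory neurons, the next class. The step was downward in 10 of 10 libraries (log2 difference 2.08, exact permutation adjusted p = 0.0156). All other classes lay between 15.7 and 27.8 CPM, and none of those steps passed. The plot of levels by class shows these patterns library by library.

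**Figure D1:**
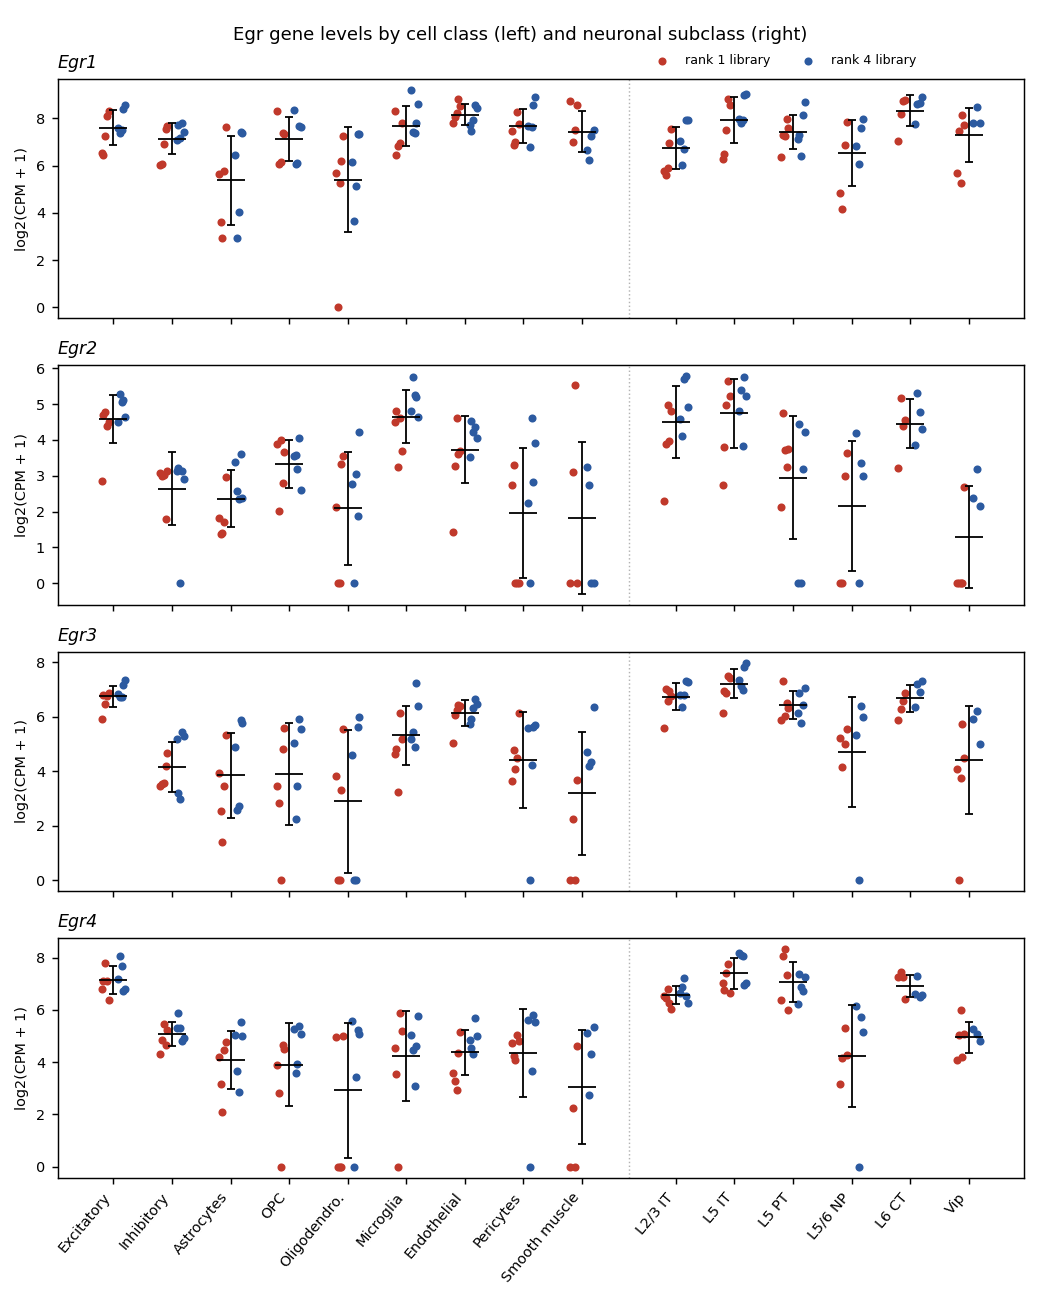
Level of each Egr gene, as log2(CPM + 1) on the vertical axis, in every library with at least 20 cells of the class, for 9 cell classes (left of the dotted line) and 6 neuronal subclasses (right). Red points are rank 1 and blue points rank 4 libraries, and bars are the mean ± SD. Mean Egr1 runs from 74.7 to 297 CPM over the classes, and the highest class mean of Egr4, 151 CPM, is in excitatory neurons. Levels are not corrected for free RNA.

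Among neuronal subclasses, named for their layer and target (CT for corticothalamic, NP for near-projecting, PT for pyramidal tract and IT for intratelencephalic), all members had UMIs in each excitatory subclass. Egr1 averaged 347 ± 122 CPM in layer 6 CT neurons (n = 8 libraries) and 293 ± 164 in layer 5 IT neurons (n = 10), against 126 ± 77 in layer 2/3 IT neurons, and 195 ± 108 CPM in Vip interneurons (n = 8). No step of the Egr1 order passed. For Egr3 layer 5 IT neurons stood at 155 ± 54 CPM above layer 2/3 IT neurons at 111 ± 33 in 9 of 10 libraries (log2 difference 0.47, exact permutation adjusted p = 0.0391), and layer 5 PT neurons at 90.2 ± 34.1 above layer 5/6 NP neurons at 39.4 ± 25.6 in 8 of 8 (1.72, exact permutation adjusted p = 0.0391). Egr4 was at 180 ± 74 CPM in layer 5 IT, 150 ± 84 in layer 5 PT, 125 ± 36 in layer 6 CT and 96.5 ± 24.4 in layer 2/3 IT neurons, and only the next step down, to Vip interneurons at 32.3 ± 14.6, passed (8 of 8 libraries, log2 difference 1.51, exact permutation adjusted p = 0.0391). Of the 6 subclasses tested, layer 5/6 NP neurons had the lowest mean of Egr4, 29.8 ± 23.4 CPM (n = 8). The step to them from Vip interneurons did not pass (exact permutation adjusted p = 0.883). Lamp5 interneurons (20.7 ± 16.6 CPM, n = 4) and Pvalb interneurons (21.1 ± 11.5 CPM, n = 5) lay lower but had too few libraries to test. Egr2 was higher in layer 6 CT neurons, at 23.0 ± 10.3 CPM, than in layer 5 PT neurons, at 10.9 ± 8.8, in 8 of 8 libraries (log2 difference 1.92, exact permutation adjusted p = 0.0391). These 4 subclass calls were at the edge of the threshold. Each of the Egr2 and Egr3 calls was lost without any library other than rank 4 replicate 2, and the Egr4 call without 6 of the 7 libraries whose removal left enough Vip libraries to test (exact permutation adjusted p up to 0.0781).

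Droplets also take up free RNA, so the share of cells with at least 1 UMI was set beside erythroid barcodes, which should hold no Egr transcripts of their own. Cells were thinned to 1000 UMIs, leaving 14351 of 16389 excitatory neurons (2038 shallower ones left out) and 426 of 447 erythroid barcodes. The medians over all cells, before any were left out, were 2434 UMIs in excitatory neurons and 2556 in erythroid barcodes. Egr4 was seen in 8.61% of excitatory neurons and 2.35% of erythroid barcodes (exact 95% interval 1.13% to 4.27%), and Egr3 in 11.9% and 5.87% (3.83% to 8.54%). Without thinning the excitatory shares were 18.5% for Egr4 and 26.9% for Egr3, over deeper and unequal cells. All intervals cover counting error only.

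Against that background, Egr4 and Egr3 were above the erythroid interval in excitatory neurons but in no other of the 9 classes tested. Egr4 in astrocytes, at 2.39%, and in endothelial cells, at 2.39%, lay within that interval and is not read as expression. Egr1, at 9.39% of erythroid barcodes (6.79% to 12.6%), was above the interval in excitatory neurons (22.7%), microglia (21.2%), endothelial cells (20.7%), pericytes (20.05%), oligodendrocyte precursors (15.3%) and inhibitory neurons (15.1%). Astrocytes at 8.94%, oligodendrocytes at 10.3% and smooth muscle cells at 12.3% were not above it. These shares pool libraries, and the erythroid barcodes and the neurons came from them in different proportions. In the 5 libraries with at least 20 thinned erythroid barcodes, each weighted equally, Egr1 averaged 12.5% in erythroid barcodes, from 1.96% to 37.5%, beside 18.01% in excitatory neurons, 17.2% in oligodendrocyte precursors and 13.2% in inhibitory neurons, and each of these classes was above the erythroid share of its library in 4 of 5. So were oligodendrocytes, whose mean of 9.19% was below the erythroid one, while pericytes were above in 5 of 5 (24.04%) and astrocytes in 3 of 5 (9.15%), so this count did not separate the classes as the pooled interval did. Rank 4 replicate 4 had Egr1 in 37.5% of its erythroid barcodes, 9 of 24. For Egr4 excitatory neurons were above in 5 of 5 (8.90% against 2.51%), and for Egr3 also (10.6% against 6.87%). Egr2 was above its erythroid interval, 0.382% to 2.72%, in none of the 9 classes, excitatory neurons included at 2.33%. Within the same 5 libraries, however, Egr2 was above the erythroid share in 5 of 5 in excitatory neurons (2.11% against 0.47%) and in microglia (3.86% against 0.47%), where the erythroid share rested on few barcodes with a UMI. Some erythroid barcodes formed a cluster that also held endothelial genes, and in the 316 thinned barcodes of the other cluster the shares were 6.96% for Egr1, 0.633% for Egr2, 5.38% for Egr3 and 2.22% for Egr4. Among subclasses, layer 5/6 NP neurons lay within the erythroid intervals for Egr2 (0.67%), Egr3 (5.36%) and Egr4 (3.89%), and Vip interneurons for Egr4 (4.26%). Layer 5 IT neurons had Egr2 in 2.92%, above the erythroid interval, though their own interval, 2.25% to 3.73%, overlapped it. Egr2, whose level differed between layer 6 CT and layer 5 PT neurons, was seen in 1.96% of each after thinning, also within the interval. The levels in CPM were not corrected for free RNA.

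Egr1 in excitatory neurons separated by software version. It was 85.4 to 191 CPM in the 6 libraries of replicates 1 to 3 and 273 to 381 CPM in the 4 libraries of replicates 4 and 5, with no overlap. Egr4 ran the other way, from 110 to 266 CPM in the first set and from 81.3 to 136 CPM in the second, with overlap. The version was a covariate in the rank comparison. It marks files and not a known step in the laboratory, and what it stands for was not tested.

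The rank comparison asked whether expression went with a place at the top or the bottom of the hierarchy. In excitatory neurons all 4 members had lower mean levels in rank 1 than in rank 4, and none passed after adjustment over all 12327 genes tested in edgeR's quasi-likelihood test, in which 0 genes passed (0%), as with DESeq2, and 461 had an unadjusted p under 0.05. In order of replicate number, the rank 1 libraries had 91.4, 85.4, 154, 273 and 317 CPM of Egr1, and the rank 4 libraries 191, 165, 182, 340 and 381 CPM. The rank 4 library was the higher one at each of the 5 replicate numbers, yet the groups overlapped widely. The log2 difference, rank 1 minus rank 4, was -0.54 (SE 0.17; edgeR adjusted p = 1.00).

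Egr3 was at 58.7, 110, 86.3, 106 and 114 CPM in rank 1 and at 114, 104, 104, 143 and 160 CPM in rank 4, lower in rank 1 at 4 of 5 numbers, with overlap (log2 difference -0.40, SE 0.14; edgeR adjusted p = 1.00). Egr2, with fewer counts, was at 6.26, 24.8, 26.6, 20.1 and 21.8 CPM in rank 1 and at 21.6, 37.6, 32.1, 34.0 and 24.2 CPM in rank 4. It too was lower in rank 1 at 5 of 5 numbers, and without rank 1 replicate 1, its lowest library, the difference of -0.62 (SE 0.31; edgeR adjusted p = 1.00) shrank to -0.35. Egr4 was at 110, 137, 219, 136 and 81.3 CPM in rank 1 and at 143, 266, 202, 105 and 109 CPM in rank 4, lower in rank 1 at 3 of 5 numbers (-0.24, SE 0.23; edgeR adjusted p = 1.00). Leaving out 1 library moved the Egr4 difference between -0.42, without rank 1 replicate 4, and -0.088, without rank 4 replicate 2.

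So 2 of the 4 members had an unadjusted p under 0.05, both lower in rank 1, where 2.17% of all genes tested did so in that direction, and the median of the 4 differences was -0.47 against -0.0041 over all genes. For none of the 4 did every rank 1 library lie below every rank 4 library, which held for 0.0892% of the genes tested. In summed counts, fewer cells with a transcript and less RNA per cell cannot be told apart. The plot of excitatory levels by rank shows the pairs of equal number.

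**Figure D2:**
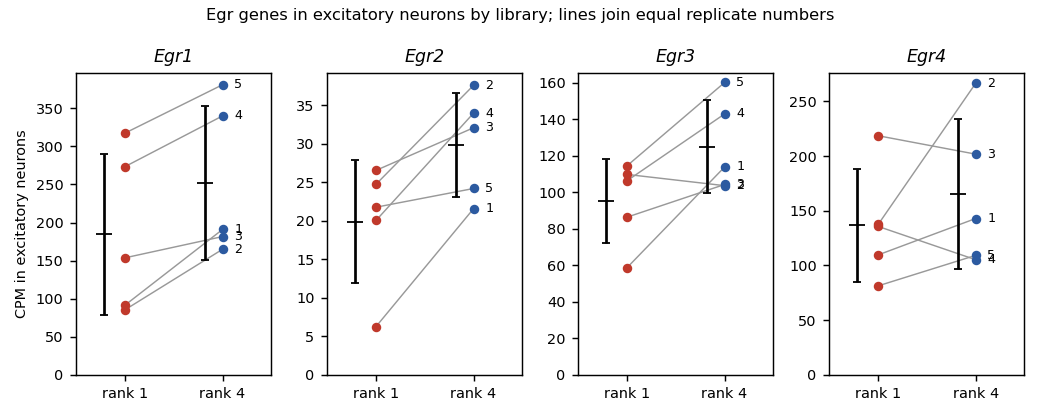
CPM of each Egr gene in excitatory neurons (vertical axes from 0) in 5 rank 1 (red) and 5 rank 4 (blue) libraries, with the mean ± SD beside each group and lines joining libraries of equal replicate number. For Egr1 all 5 lines rise from rank 1 to rank 4 while the groups overlap, the rank 1 values running from 85.4 to 317 CPM.

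Libraries of the same number deviated together, though the best match carried the same number in 27 of 40 pairs over 8 classes. With the replicate number as a block in place of the version, Egr1 in excitatory neurons passed (log2 difference -0.55, SE 0.12, edgeR adjusted p = 0.0342). In that fit 73 of 12327 genes were called, 0.592%. Egr2 (-0.64) and Egr3 (-0.43) did not pass with the block (edgeR adjusted p = 0.0837 for each), nor did Egr4 (-0.26, adjusted p = 0.45). Within the versions Egr1 differed by -0.73 in replicates 1 to 3 and by -0.27 in replicates 4 and 5, and neither fit called it (edgeR adjusted p = 1.00 and 0.98).

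Within excitatory neurons, Egr1 was also compared by layer. In layer 2/3 IT neurons Egr1 was at 53.3, 47.6, 58.0, 123 and 186 CPM in rank 1 and at 131, 63.4, 102, 247 and 244 CPM in rank 4, lower at all 5 numbers, with overlap. The log2 difference was -0.79 (SE 0.20), which did not pass (edgeR adjusted p = 0.99) but did with the block (-0.75, SE 0.14; edgeR adjusted p = 0.00700), where 41 of 9094 genes were called, 0.451%. In layer 5 IT neurons Egr1 was at 76.4, 89.5, 181, 457 and 380 CPM in rank 1 and at 249, 224, 243, 505 and 524 CPM in rank 4, again lower at all 5 numbers. Its log2 difference was -0.71 (SE 0.21; edgeR adjusted p = 0.85), and with the block -0.70 (SE 0.14; edgeR adjusted p = 0.00401), where 83 of 8506 genes were called, 0.976%. Without the block 0 genes passed in either subclass (0%). Egr1 passed with neither fit in the other excitatory subclasses tested. In layer 6 CT neurons it was at 321 ± 143 CPM in rank 1 and 373 ± 112 in rank 4, lower at 3 of 4 numbers. Layer 5 PT neurons had 167 ± 62 and 215 ± 133 CPM, lower at 3 of 5, and their difference reversed within replicates 1 to 3 (0.067). Layer 5/6 NP neurons had 99.0 ± 100 and 156 ± 82 CPM, lower at 3 of 3. The block fits that called Egr1 also called, all lower in rank 1, the dissociation genes Mt1 (-0.95) and Mt2 (-1.21) and the neuronal gene Nrgn (-0.57) in layer 2/3 IT neurons and Mt1 (-0.70) in layer 5 IT neurons, and their part in the Egr1 values was not tested.

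The other members in layer 2/3 IT and layer 5 IT neurons were lower in rank 1 without passing under either fit. Egr2 differed by -0.95 in layer 2/3 IT neurons and by -0.45 in layer 5 IT neurons, Egr3 by -0.30 and -0.45, and Egr4 by -0.27 and -0.47. Layer 5 IT Egr4 showed a split by version: it was 131, 106 and 168 CPM in rank 1 replicates 1 to 3 and 287, 274 and 269 in rank 4, without overlap, but 215 and 98.2 in rank 1 replicates 4 and 5 and 124 and 129 in rank 4. The differences within the versions were -1.001 and 0.31. In layer 5 PT and layer 6 CT neurons Egr4 was higher in rank 1, by 0.37 and 0.38, without passing.

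Across all classes, 22 of 36 combinations of member and class had counts enough to be tested, and 20 of these were lower in rank 1. In subclasses 18 of 24 were tested and 16 were lower. The median difference over all genes tested ran from -0.0203 in oligodendrocyte precursors to 0.0195 in Vip interneurons. These combinations share libraries and are not independent, and the members were chosen with earlier results of these data known. With the version as covariate, 0 genes were called in any class or subclass (0% in each). The exceptions to the direction were Egr1 in endothelial and smooth muscle cells and Egr4 in layer 5 PT and layer 6 CT neurons. In pericytes Egr1, the only member tested, differed by -0.53 and passed with neither fit. Its unadjusted edgeR p was under 0.05, as for 19 of 3185 genes in that direction. Egr1 in smooth muscle cells was under 0.05 the other way, as were 9 of 1596 genes.

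**Figure D3:**
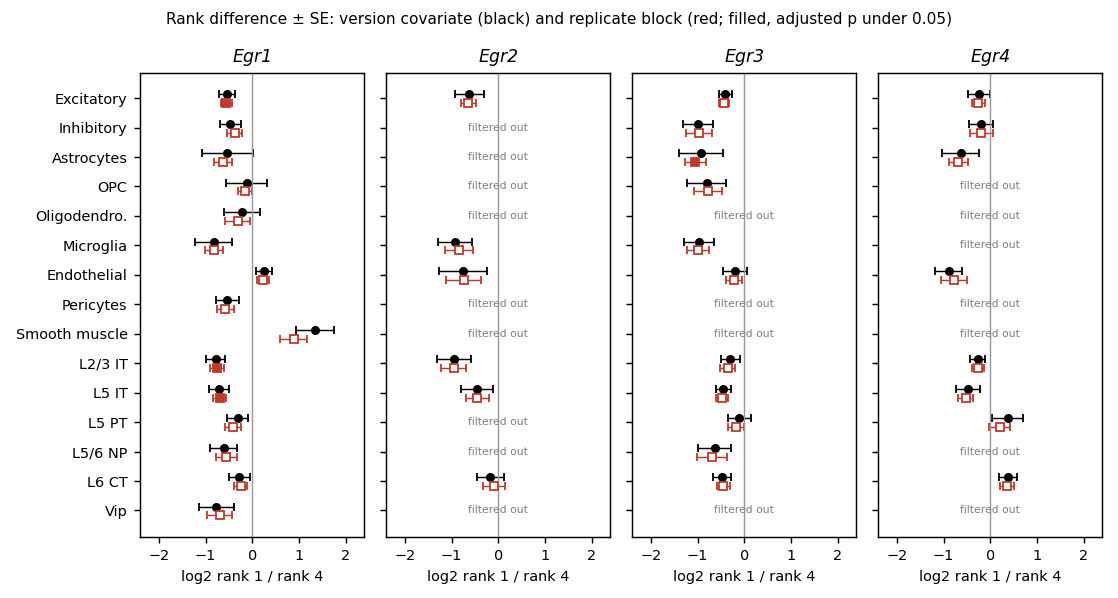
Log2 difference, rank 1 minus rank 4, ± SE for each Egr gene (panels) in 9 classes and 6 subclasses (rows), with the version as covariate (black) and with the replicate number as block (red, filled where the adjusted p was under 0.05). Most points lie left of 0, and the 4 filled ones are Egr1 in excitatory, layer 2/3 IT and layer 5 IT neurons and Egr3 in astrocytes.

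In microglia, the resident immune cells of the brain, all 3 members tested were lower in rank 1. Egr3 was at 23.7, 27.1, 8.43, 69.9 and 35.7 CPM in rank 1 and at 35.4, 42.7, 28.6, 148 and 82.0 CPM in rank 4, lower in rank 1 at 5 of 5 numbers (log2 difference -0.97, SE 0.32). Egr1 (-0.83) and Egr2 (-0.93) were also lower at 5 of 5. None passed with either fit (edgeR adjusted p = 1.00, and 0.22 to 0.39 with the block), while Egr2 and Egr3 were under 0.05 before adjustment, as 1.14% of the genes tested in microglia were in that direction. These values rested on as few as 2 UMIs of Egr3 in a library. In microglia 16 of 20 other early response genes (median -0.41) and 13 of 15 genes that dissociation raises (median -0.32) were also lower in rank 1, none with an unadjusted p under 0.05 in edgeR, and their part in the Egr values was not tested.

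In endothelial cells Egr1 went the other way, at 222, 269, 297, 457 and 368 CPM in rank 1 and at 208, 174, 244, 382 and 349 CPM in rank 4, higher in rank 1 at 5 of 5 numbers (log2 difference 0.26, SE 0.17; edgeR adjusted p = 1.00). The 23 other early response genes measured there had a median difference of 0.19. Egr4 was lower in rank 1 (-0.89, SE 0.29; edgeR adjusted p = 1.00), beside 5 of 5 abundant neuronal genes with a median of -0.73, and it was under 0.05 before adjustment, as 0.586% of genes were in that direction. The share of endothelial cells with an Egr4 UMI lay within the interval of erythroid barcodes. The part of free neuronal RNA in that value was not tested.

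In astrocytes Egr3 passed with the block only (-1.05, SE 0.23; edgeR adjusted p = 0.0206, where 48 of 10680 genes were called, 0.449%), against -0.92 with the version (SE 0.47; edgeR adjusted p = 1.00). The neuronal genes Meg3 (-0.94), Slc17a7 (-0.85) and Nrgn (-0.83) were called in the same block fit, and all 5 genes of that list were lower, with a median of -0.83. Their summed level was 221 to 2149 CPM in rank 1 and 283 to 2869 CPM in rank 4. Egr3 was seen in 2.71% of thinned astrocytes, below its share in erythroid barcodes, and the part of free RNA was not tested. In inhibitory neurons Egr3 was also lower in rank 1 (-0.99, SE 0.32; edgeR adjusted p = 1.00), and was under 0.05 before adjustment, as 1.35% of genes were in that direction. It was lower at only 3 of 5 numbers, and 3.58% of thinned inhibitory neurons held a UMI of Egr3, against 5.87% of erythroid barcodes. Of the 5 abundant neuronal genes 4 were lower there, with a median of -0.27, from Nrgn at -1.16 to Meg3 at 0.45.

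Smooth muscle cells had few counts. Rank 1 replicates 1, 2, 3 and 5 had 432, 128, 182 and 379 CPM of Egr1, and rank 4 replicates 2 to 5 had 101, 74.7, 152 and 180 CPM, resting on 8 to 36 UMIs a library. The log2 difference was 1.34 (SE 0.40; edgeR adjusted p = 1.00). Egr3 there was the only member and class without overlap, at 0 to 11.9 CPM in rank 1 and 17.2 to 79.8 CPM in rank 4, from 17 UMIs in all, and such an order held for 0.664% of all genes counted in that class.

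Whether the rank difference itself varied between classes was tested against excitatory neurons, for 4 members in 8 other classes, with two-sided exact permutation tests. None of 32 passed after adjustment. For Egr1 in endothelial cells the difference in log2(CPM + 1) exceeded that of excitatory neurons by 0.83 (exact permutation p = 0.0159, adjusted p = 0.305). Differences between ranks in the share of excitatory neurons with a UMI, from -0.826 points for Egr2 to -5.03 points for Egr1, did not pass either (two-sided exact permutation tests, adjusted p = 0.714, the smallest p the design allows being 0.00794). These tests took no account of replicate number or version. Without thinning, the differences reversed for Egr3 (1.76 points) and Egr4 (0.90 points). The thinned share with any member was lower in rank 1 at every replicate number, 25.9% against 32.6% on average (exact permutation p = 0.214).

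In excitatory neurons, of 14 upstream genes, which code for serum response factor, its Elk and Mkl partners, Creb, Mef2 factors and their kinases, 7 were lower and 7 higher in rank 1, with a median of 0.00037. The repressor gene Crem had the smallest p (-0.42, edgeR adjusted p = 1.00). Nab2 differed by -0.13 and Nab1 by -0.09, and neither had an unadjusted p under 0.05. Of 7 measured genes with described Egr-bound promoters, 4 were lower and none had an unadjusted p under 0.05 in edgeR, the first by p being Syn1, the synaptic vesicle protein synapsin, at -0.19.

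Of 27 other early response genes 21 were lower in rank 1, with a median of -0.21, and 7 lower and 2 higher had an unadjusted p under 0.05 in edgeR, against 2.17% and 1.57% of all genes. Bdnf, the neurotrophin, differed by -0.54, Nr4a1, an orphan nuclear receptor, by -0.51, and Dusp6, a phosphatase of ERK, by -0.50, while the antiproliferative gene Btg2 differed by 0.70. All 4 passed with the block only (edgeR adjusted p = 0.0225 to 0.0372). In layer 5 IT neurons 19 of 21 early response genes were lower, and 8 passed with the block, all lower, in the fit that called 0.976% of genes. In layer 6 CT neurons 13 of 24 were lower, and the 3 that passed with the block were higher, in a fit that called 92 of 9583 genes, 0.96%. These were Btg2 (1.13) and, named after their values were seen, Cyr61 (1.402) and Ier2 (0.80). Genes that tissue dissociation raises summed to 3948 to 4822 CPM in rank 1 and to 4151 to 4877 CPM in rank 4 over 15 genes, 9 of them lower in rank 1. Of these the metallothionein genes Mt1 (-0.79) and Mt2 (-1.03) passed with the block, as Egr1 did (edgeR adjusted p = 0.0225 and 0.0354). Of the 5 abundant neuronal genes 4 were lower in excitatory neurons, with a median of -0.18, and Nrgn, which codes for the calmodulin-binding protein neurogranin, passed with the block (-0.53, edgeR adjusted p = 0.0390). The part of dissociation, or of what moved Nrgn, in the Egr differences was not tested.

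The corepressors were measured in the same classes. Nab1 was at 170 ± 59 CPM in smooth muscle cells (n = 8), 52.6 ± 7.7 in endothelial cells and 20.3 ± 5.2 in excitatory neurons, within which layer 5 PT neurons had 43.2 ± 13.2 and layer 2/3 IT neurons 11.9 ± 6.5 CPM. Nab2 was at 112 ± 116 CPM in microglia, where libraries ran from 11.6 to 274 CPM, and at 43.2 ± 14.5 in excitatory neurons.

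In single excitatory neurons, cells with one member held another more often in all 6 pairs of members, and 5 of the 6 passed the test. Over the thinned cells of a library 29.2% ± 8.1 held a UMI of at least 1 member and 6.98% ± 2.45 of 2 or more (n = 10). Egr1 was seen in 34.5% ± 11.9 of neurons with an Egr4 UMI and in 14.5% ± 8.2 of those without, a higher share in 10 of 10 libraries (two-sided exact sign-flip permutation test, adjusted p = 0.00391 over 6 pairs). For Egr3 the shares were 21.02% ± 5.5 with and 8.90% ± 2.79 without an Egr4 UMI, higher in 10 of 10 (exact permutation adjusted p = 0.00391). For Egr2 they were 8.63% ± 3.87 and 1.27% ± 0.82, higher in 9 of 10 (exact permutation adjusted p = 0.00469).

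Egr3 went with the others in the same way. Egr1 was seen in 26.1% ± 9.6 of neurons with an Egr3 UMI and 15.3% ± 8.0 without, higher in 10 of 10 libraries, and Egr2 in 4.78% ± 1.74 and 1.68% ± 0.69, higher in 9 of 10 (exact permutation adjusted p = 0.00391 and 0.00469). For Egr1 and Egr2, only 4 libraries had at least 20 neurons with an Egr2 UMI, and the shares of 45.1% and 23.3%, higher in 4 of 4, could not pass in that design (exact permutation p = 0.125, the smallest it allows). In astrocytes 7.10% of cells with an Egr4 UMI and 11.9% of those without held Egr1 (higher in 1 of 5 libraries), and 17.5% of cells with an Egr3 UMI and 12.8% of those without (higher in 3 of 4). With so few libraries neither could pass (exact permutation p = 0.188 and 0.375). Neurons of several layers are pooled in these shares, and the part of layer in them was not tested.

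**Figure D4:**
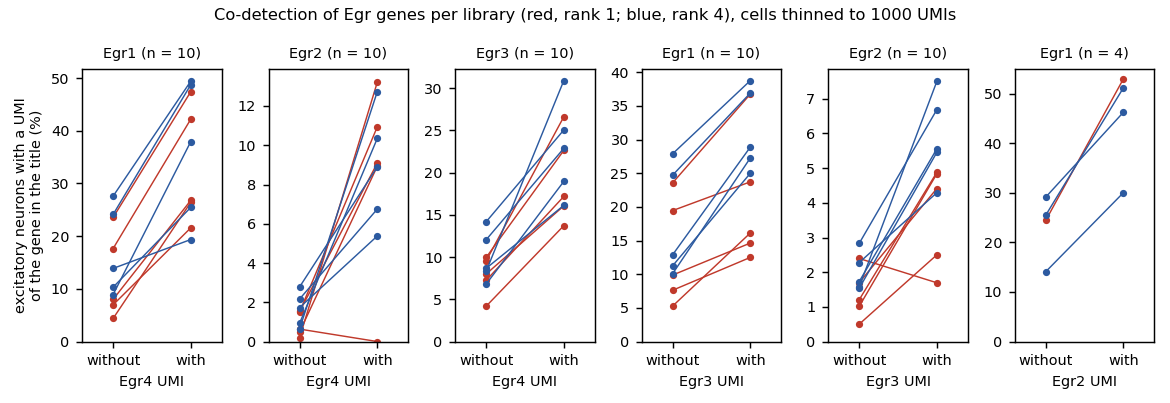
Percent of excitatory neurons with a UMI of the gene named above each panel, among cells without and with a UMI of a second member (horizontal axis), 1 line per library (red, rank 1; blue, rank 4), cells thinned to 1000 UMIs. Lines rise in all 10 libraries for Egr1 and Egr3 with Egr4, with mean shares of 34.5% against 14.5% for Egr1.

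Neurons with an Egr4 UMI were then described across all genes, as a log2 ratio of CPM to neurons without one in each of the 10 libraries, which held 51 to 415 such cells. These cells were chosen by a measured value, so no test is given. A small constant was added to each count. As fewer neurons held an Egr4 UMI than did not, it raised the ratios of genes with few counts. Of 7745 genes, 33 (0.426%) had a median ratio of at least 1 and a value above 0 in every library, and no gene met the reverse. All 3 other members were among them, Egr2 with a median of 2.78 (range 0.49 to 6.05), Egr3 with 1.47 (0.96 to 2.15) and Egr1 with 1.43 (0.63 to 2.64). Egr2 was above 0 in rank 1 replicate 1 only through the constant. There 0 of 51 neurons with an Egr4 UMI held Egr2, against 0.63% of those without.

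The 10 of these 33 genes with the largest median were Egr2 and 9 others, early response genes with 1 exception outside the list, Tiparp, an ADP-ribosyltransferase gene, at 2.44. The early response genes were the nuclear receptor gene Nr4a2 (2.63), the AP-1 genes Fos (2.38), Junb (2.19), Fosb (2.00) and Fosl2 (1.94), Btg2 (2.37), the synaptic gene Arc (2.02) and Dusp6 (1.95). Of the 23 early response genes measured 13 met the rule, with a median of 1.56 over the list against 0.05 over all genes. Of 12 upstream genes Crem alone met it (1.15). No gene of the other lists did: Nab1 had a median of 0.84 and was above 0 in 8 of 10 libraries, Nab2 had 0.24, the 6 target genes had a median of 0.08, the 10 dissociation genes 0.06, with Dnajb1 at 0.77 and above 0 in 9 of 10 libraries, and the 5 abundant neuronal genes -0.02.

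**Figure D5:**
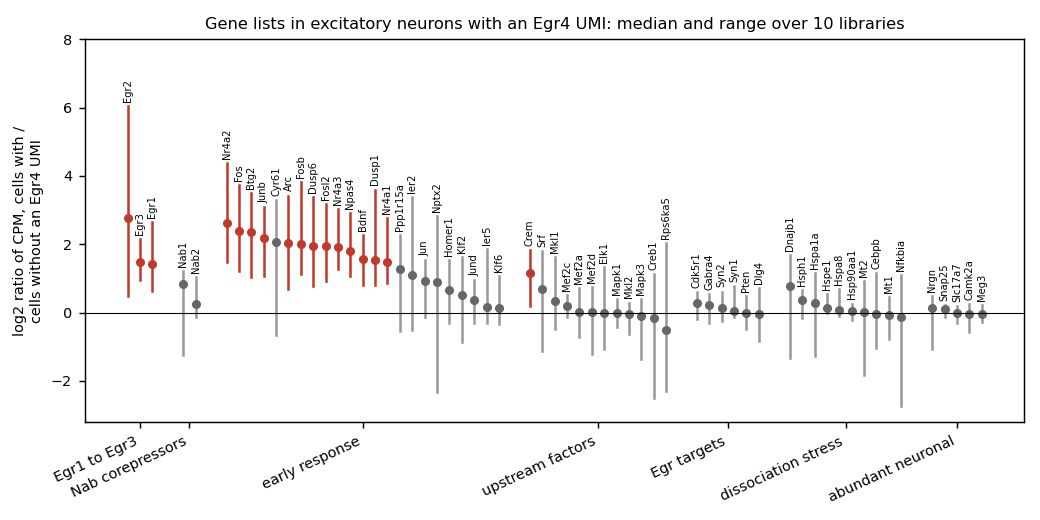
Log2 ratio of CPM in excitatory neurons with an Egr4 UMI to those without (vertical axis) for the genes of 7 lists (horizontal axis), as the median (point) and the range (line) over 10 libraries. Red genes were above 0 in every library with a median of at least 1, and these are Egr1, Egr2, Egr3, 13 early response genes and Crem, while the medians of the target, dissociation and abundant neuronal lists are 0.08, 0.06 and -0.02. In rank 1 replicate 1 Egr2 is above 0 only through the constant added to each count.

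Over the mean levels of the 9 classes, the genes most like each member among 12831 compared were named by Pearson's r of log2(CPM + 1), as a description over 9 points that share libraries and depth. They were Ddn (0.99), 1110008P14Rik (0.99) and Stx1a (0.99) for Egr4, and Ptgs2 (0.97), Ankrd33b (0.96) and Vwa3a (0.93) for Egr3. For Egr1 they included Arf2 (0.93) and Uvrag (0.93), and for Egr2 they were Ppp6r1 (0.93), Naa50 (0.92) and Tbpl1 (0.91). Within the family the highest r was 0.84, between Egr2 and Egr3, and the lowest 0.29, between Egr1 and Egr4.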

How the data were processed

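Single-cell RNA was measured in 10 libraries. The deposited values are UMI counts per gene and barcode, made per the submitters' processing notes with Cell Ranger 4.0.0 on mm10, while the file headers of replicates 1 to 3 give version 3.1.0. Only the 30406 genes in both gene lists were used. Barcodes needed at least 500 genes and at most 15% mitochondrial counts, and 3915 doublets were called by Scrublet and removed (in 1 library where the caller failed, at the median threshold of the others). Cells were clustered in scanpy 1.11.5 (2000 variable genes without early response genes, 30 components, 15 neighbours, Leiden resolution 1) and named from marker lists.

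Counts were summed per library and class with at least 20 cells, in classes with at least 3 libraries per rank. The sums were tested in edgeR 4.0.16 (R 4.3.3; quasi-likelihood, TMM, filterByExpr, Benjamini-Hochberg over all genes tested, threshold 0.05) with the file version as covariate. Levels and shares were tested by exact permutation (scipy 1.17.1) on log2(CPM + 1) or on cells thinned to 1000 UMIs, with exact Clopper-Pearson intervals of 95%. Alternatives were the replicate block, DESeq2 1.42.0, other filters, clusterings and thinning, and leaving out each library. On simulated data for the excitatory comparison of 12327 genes, 57.1% of genes changed by 1 log2 unit and 97.8% of those changed by 2 were called. Of 11973 unchanged genes 4 were called, 0.0334%. Changes as small as the Egr differences in excitatory neurons were not simulated.

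Equal replicate numbers come from the labels. Over 40 pairs in 8 classes, same-numbered libraries deviated together (r from 0.436 to 0.873), which also holds the version, within which r ran from -0.142 to 0.815. In 27 of the 40 the best match carried the same number. The 4 members and all gene lists were chosen with earlier results of these data known. Named were all members, both corepressors, per list up to 4 genes with the smallest p in excitatory neurons, the 3 genes most like each member (among those with at least 10 CPM in a class), and the 10 genes with the largest median ratio in neurons with an Egr4 UMI among those above 0 in every library. A gene this rule would name for Egr1 is not reported here.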

Additional observations from a re-analysis of the deposited data

Results flagged for a closer look

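Of 116 groups of 4 or 5 libraries, 11 held a library set far apart from the others of its rank, where chance gives about 1 in 20, or 5.8. Rank 1 replicate 5 was the high one in 6 of them. In astrocytes it had 195 CPM of Egr1 (other rank 1 libraries 6.65 to 54.0) and 6.86 CPM of Egr2 (1.59 to 2.53), in oligodendrocytes 46.0 CPM of Egr3 (0 to 13.3), and in pericytes 68.8 CPM of Egr3 (11.4 to 26.5). Its 5.39 CPM of Egr2 in Vip interneurons rested on 1 UMI and its 23.7 CPM of Egr4 in smooth muscle cells on 2 UMIs.

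In smooth muscle cells Egr2 was at 45.4 CPM in rank 1 replicate 3, from 4 UMIs, and Egr3 at 79.8 CPM in rank 4 replicate 5, from 8 UMIs. Egr2 in inhibitory neurons was low in rank 1 replicate 4, at 2.45 CPM, and 0 in rank 4 replicate 3. Egr4 in layer 6 CT neurons was at 155 CPM in rank 4 replicate 3 (77 cells), against 90.2 to 97.7 CPM in the other rank 4 libraries.

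The rank difference stood apart from that of excitatory neurons, before adjustment only, by 0.83 for Egr1 in endothelial cells, by 1.88 for Egr1 in smooth muscle cells and by -2.92 for Egr3 in smooth muscle cells (exact permutation adjusted p = 0.305 for each).

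The 1569 barcodes in clusters with no name were in no comparison. Of the 926 of them that could be thinned, 19.5% held a UMI of Egr1, 0.648% of Egr2, 7.56% of Egr3 and 7.34% of Egr4.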

How the results depend on the processing

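Of 794 alternative values for the 40 rank differences tested, 775 kept their direction and their side of the threshold. With the replicate block Egr1 passed in excitatory (-0.55), layer 2/3 IT (-0.75) and layer 5 IT neurons (-0.70), and Egr3 in astrocytes (-1.05), and the block changed no other call of a member. Without the low-count filter Egr1 in layer 2/3 IT neurons also passed (-0.80, edgeR adjusted p = 0.0310). Within replicates 4 and 5 Egr4 reversed in excitatory (0.035), inhibitory (0.14), layer 5 IT (0.31) and layer 5 PT neurons (-0.24), and within replicates 1 to 3 Egr3 (0.29) and Egr1 (0.067) in layer 5 PT neurons. Leaving out 1 library reversed Egr1 in astrocytes (-0.98 to 0.16; 0.16 without rank 4 replicate 1) and in oligodendrocyte precursors (-0.77 to 0.52; 0.08 and 0.04 without rank 1 replicates 2 and 3, 0.52 without rank 4 replicate 1), Egr3 in endothelial cells (-0.31 to 0.019; 0.019 without rank 1 replicate 1) and in layer 5 PT neurons (-0.30 to 0.13; 0.03 without rank 1 replicate 5, 0.13 without rank 4 replicate 5), and Egr2 in layer 6 CT neurons (-0.41 to 0.024; 0.024 without rank 1 replicate 1). Genes called went from 0 to 17 in excitatory neurons without the filter and to 73 with the block. Summed over classes they were 57 without the filter, 162 with the block, 1 with DESeq2 and 0 to 4 without 1 library. Over subclasses they were 81, 251 and, without 1 library, 0 to 1. With at least 50 cells per library 7 genes were called in layer 5/6 NP and 1 in layer 6 CT neurons, with stricter cells 4 in smooth muscle cells, and within replicates 4 and 5 1 each in astrocytes, oligodendrocyte precursors and layer 5 PT neurons. With stricter cells Egr3 no longer passed between excitatory and endothelial cells (0.46). Neighbouring subclass calls numbered 0 with stricter cells, 0 at clustering resolution 2 and 0 to 4 without 1 library. Their values were 2.01 with stricter cells, 2.06 at resolution 2 and 1.44 to 2.18 without 1 library for Egr2, 0.50 with stricter cells and 0.44 to 0.53 for layer 5 IT Egr3, 1.13 at resolution 2 and 1.14 to 1.96 for layer 5 PT Egr3, and 1.65 at resolution 2 and 1.37 to 1.61 for Egr4. Mean shares of excitatory neurons not thinned were 35.3% for Egr1, 6.26% for Egr2, 28.0% for Egr3 and 21.2% for Egr4, and at 700 UMIs 7.01% for Egr3 and 6.91% for Egr4. Not thinned, the rank differences in share reversed for Egr3 (1.76 points) and Egr4 (0.90 points), and Egr1 with Egr2 passed over 10 libraries (45.9 points). Genes higher with an Egr4 UMI numbered 6144 without a filter. Without it, genes with no counts in either set of cells gained a ratio above 0 from the added constant alone. They numbered 26 when cells were not thinned. That alternative was chosen after seeing the data, as were the shares within libraries that hold erythroid barcodes and those in 1 erythroid cluster. The causes of the other changes were not tested. Precision is limited by the counts, which fell to 2 UMIs or fewer for some members and libraries.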
